A study of Mus musculus with 10 samples.

Results

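The genes described here encode the subunits of the proteasome, its activators and inhibitor, and the chaperones that assemble it. Members were taken by symbol, as every gene named Psma, Psmb, Psmc, Psmd, Psme, Psmf or Psmg followed by a digit that had a probe set with a single symbol, and each was read from its brightest probe set, by the mean of all 10 arrays. The rule gave 48 of the 12366 genes measured. Of these, 46 encode subunits, regulators or assembly factors, and the other 2, Psmc3ip and Psme3ip1, share the symbol pattern without being subunits. Psmb11, a subunit of the thymus, was not analysed here, and Psme2 was left out because its probe set carries more than 1 symbol.

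The proteasome is the protease that degrades proteins marked with ubiquitin. Its barrel-shaped core is built from outer rings of alpha subunits and inner rings of beta subunits, and 3 of the beta subunits carry the catalytic sites. A regulatory particle, made of a base that contains ATPases and a lid that removes ubiquitin, unfolds substrates and feeds them into the core. Interferon induces an alternative set of catalytic subunits, which replace the constitutive ones during assembly to form the immunoproteasome, a source of peptides for MHC class I molecules. Dedicated chaperones guide the alpha ring, the beta subunits and the regulatory base into place.

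RNA came from whole livers of mice aged 28 days and of mixed strain, after a fast of 5 hours, with 1 array for each of 10 livers. The 5 mutants carried loxP-flanked Dicer alleles on both chromosomes together with an Afp-Cre transgene, so Cre was driven by Afp sequences, which work in the hepatocyte lineage of the fetal liver, and whole liver also holds cells of other lineages. The genotype of the 5 controls is not given in the labels beyond the word control, and nothing is said of sex, litter or batch. Values are log2 signals as deposited, and differences are mutant minus control on that scale. The standard error (SE), the 95% interval and the adjusted p of a difference come from limma over all genes, and a gene was called at an adjusted p under 0.05. Nothing says that the livers came from separate litters.

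Dicer1, the targeted gene, was lower in every mutant on both of its probe sets, with no overlap between groups. The controls lay from 7.99 to 8.10 and the mutants from 5.42 to 5.94 on the first probe set (difference -2.31, adjusted p = 4.1e-05 over all probe sets). The other probe set differed by -1.03 (adjusted p = 0.000678). The position of both probe sets with respect to the loxP sites was not analysed here. Of 8 listed hepatocyte markers 7 were measured, with control means from 13.47 to 16.44, and 0 were called by limma while 1 had an unadjusted p under 0.05. Mutant replicate 5 stood between the groups on the first principal component of all probe sets, at -15.4, against -45.8 to -25.6 for the controls and 33.4 to 62.2 for the other mutants. Dicer1 in that array lay within the range of the other mutants, at 5.84 on the first probe set and 6.98 on the other. Without that array the genes called lower numbered 2160 in place of 1422, and without mutant replicate 4 those called higher numbered 627 in place of 1066.

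Among the 48 genes the immunoproteasome subunits rose, 4 assembly chaperones fell, and 30 of 31 constitutive structural subunits differed by less than 0.3. By limma 5 members were higher (Psmb8, Psmb9, Psmb10, Psma1 and Psmc2) and 5 were lower (Psmg1, Psmg3, Psmg4, Psmd5 and Psmd13), while 38 did not pass. Over all 12366 genes 8.62% were called higher, 11.5% lower and 20.1% either way, so the share of members called, 5 of 48 in each direction, lies near that background. The median difference of the members was -0.03, and that of all genes was -0.01. Differences were above 0 for 19 members and for 45.2% of all genes. The called members fall into separate roles, which are described in turn. Groups did not overlap for 10 members, 5 with the mutants above and 5 with the mutants below, beside 6.17% and 6.99% of all genes.

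**Figure D1:**
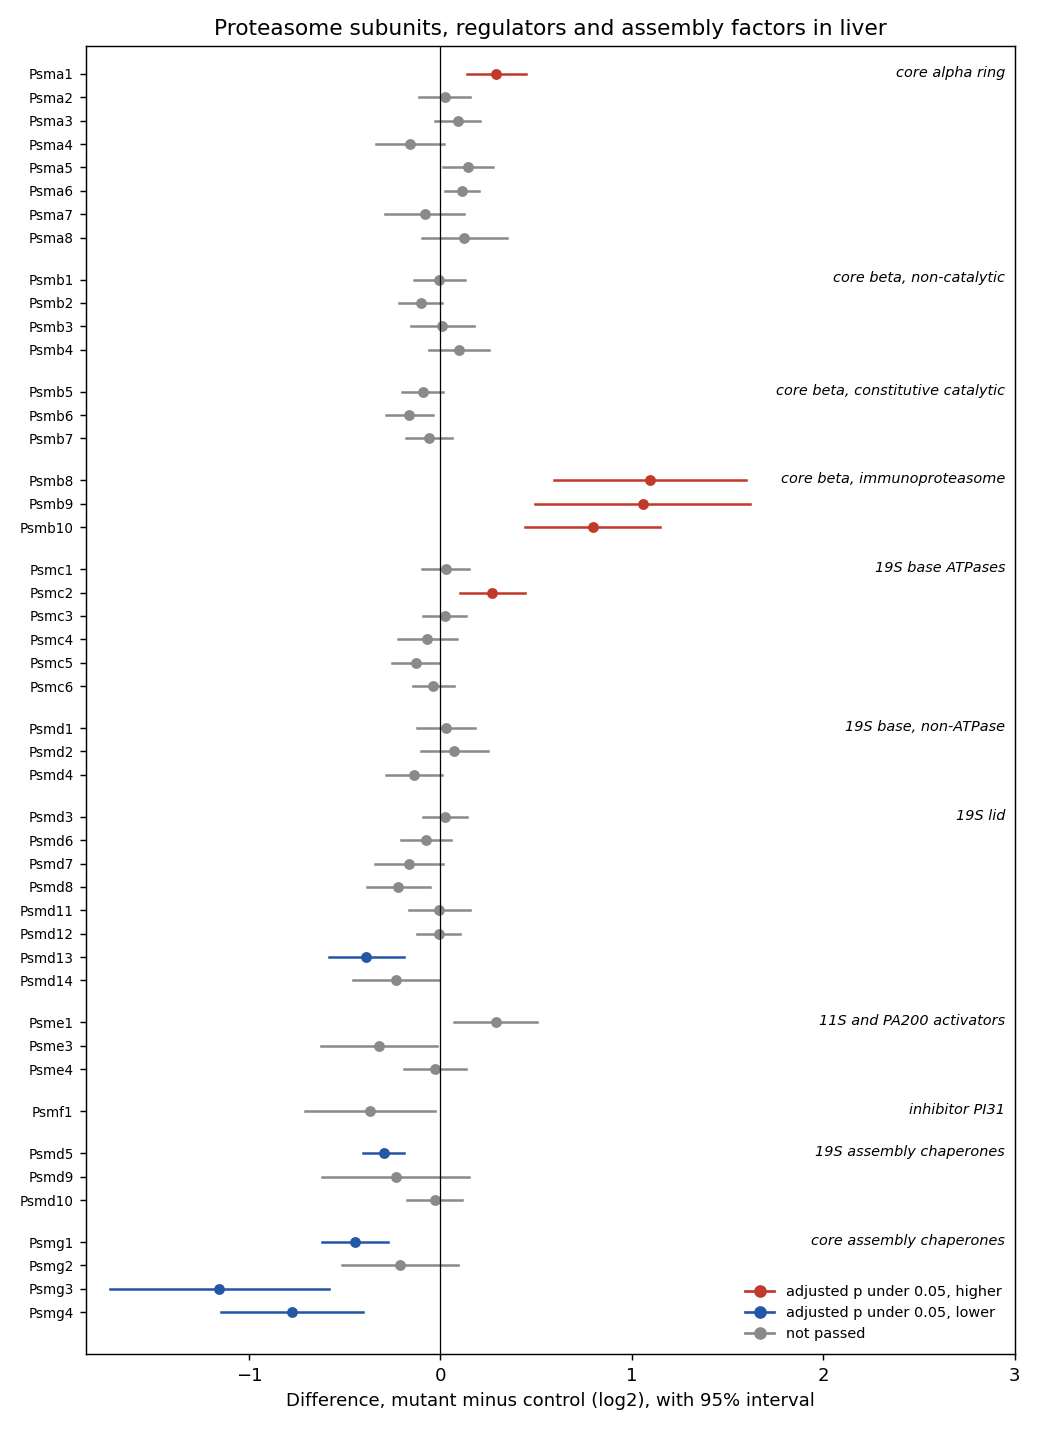
Difference between mutant and control liver (x axis, log2) with its 95% interval for each of 46 proteasome genes (y axis), arranged by role and coloured by the limma call. The 3 immunoproteasome subunits lie between 0.80 and 1.10, the 7 assembly chaperones all lie below 0, and most other subunits lie close to 0.

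The inducible catalytic subunits Psmb8, Psmb9 and Psmb10 were all higher in mutant liver, by 2.14-fold, 2.08-fold and 1.74-fold on the deposited log2 scale. Psmb8 replaces Psmb5, the chymotrypsin-like site, in the immunoproteasome. It stood at 9.08, 9.56, 9.61, 8.84 and 8.72 in control replicates 1 to 5 and at 10.15, 10.18, 10.22, 10.84 and 9.90 in mutant replicates 1 to 5. Every mutant lay above every control, and mutant replicate 4 was the highest. The means were 9.16 ± 0.41 (SD, n = 5) for controls against 10.26 ± 0.35 (SD, n = 5) for mutants, and they differed by 1.10 (SE 0.22, adjusted p = 0.0129, 95% interval 0.60 to 1.60).

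Psmb9 takes the place of Psmb6, the caspase-like site. Its control values were 8.92, 9.34, 8.86, 7.98 and 8.54, and its mutant values were 9.67, 9.26, 9.996, 10.07 and 9.92. The groups overlapped at a single point, where mutant replicate 2 lay just under control replicate 2. The means of 8.73 ± 0.51 (SD, n = 5) and 9.78 ± 0.33 (SD, n = 5) differed by 1.06 (SE 0.25, adjusted p = 0.0204). This call was lost without mutant replicate 4, where the difference was 0.98 (adjusted p = 0.0514).

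Psmb10 replaces Psmb7, the trypsin-like site. Controls stood at 8.999, 9.09, 8.85, 8.84 and 8.27 and mutants at 9.69, 9.80, 9.45, 9.74 and 9.35. The groups did not overlap, and control replicate 5 was the lowest array. The means, 8.81 ± 0.32 (SD, n = 5) and 9.61 ± 0.20 (SD, n = 5), differed by 0.80 (SE 0.16, adjusted p = 0.0117, 95% interval 0.44 to 1.15). Psmb8 and Psmb10 were called in all 10 fits that left out 1 array, with adjusted p up to 0.0328 and 0.0322. Each of the 3 genes was read from its only probe set.

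None of the 3 constitutive catalytic subunits was called by limma, and 1 had an unadjusted p under 0.05. Psmb5 stood at 11.51, 11.46, 11.55, 11.51 and 11.47 in controls and at 11.39, 11.42, 11.48, 11.29 and 11.46 in mutants. It differed by -0.09 (SE 0.05, adjusted p = 0.204, 95% interval -0.20 to 0.01). Psmb6 stood at 11.82, 11.97, 11.93, 11.85 and 11.82 in controls and at 11.77, 11.72, 11.74, 11.57 and 11.79 in mutants, so that every mutant lay below every control by a small margin. Its difference was -0.16 (SE 0.06, adjusted p = 0.0664) and passed without mutant replicate 5, at -0.18 (adjusted p = 0.0475), with quantile normalization (adjusted p = 0.0434) and with array weights (adjusted p = 0.0469). For Psmb7 the controls were 12.10, 12.12, 12.13, 12.18 and 12.19 and the mutants 12.07, 12.18, 12.18, 11.96 and 12.03, and the difference was -0.06 (SE 0.05, adjusted p = 0.484, 95% interval -0.18 to 0.06). The upper ends of all 3 intervals lie below the lower ends of those of Psmb8, Psmb9 and Psmb10.

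Each inducible subunit was then set against the constitutive one it replaces, after both were expressed relative to their own control mean. For Psmb8 against Psmb5 the controls ran from -0.41 to 0.44 and the mutants from 0.77 to 1.89. For Psmb9 against Psmb6 the ranges were -0.72 to 0.52 and 0.69 to 1.65, and for Psmb10 against Psmb7 they were -0.59 to 0.30 and 0.60 to 1.11. All 5 mutants thus lay above all 5 controls in each pair. Averaged over the 3 pairs, controls 1 to 5 stood at 0.13, 0.42, 0.18, -0.35 and -0.37 and mutants 1 to 5 at 1.04, 0.92, 1.03, 1.55 and 0.90, with a mutant mean of 1.09 ± 0.27 (SD, n = 5). No p is given for this average, which is a score over chosen genes. It stayed between 0.97 and 1.19 when any 1 array was left out.

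**Figure D2:**
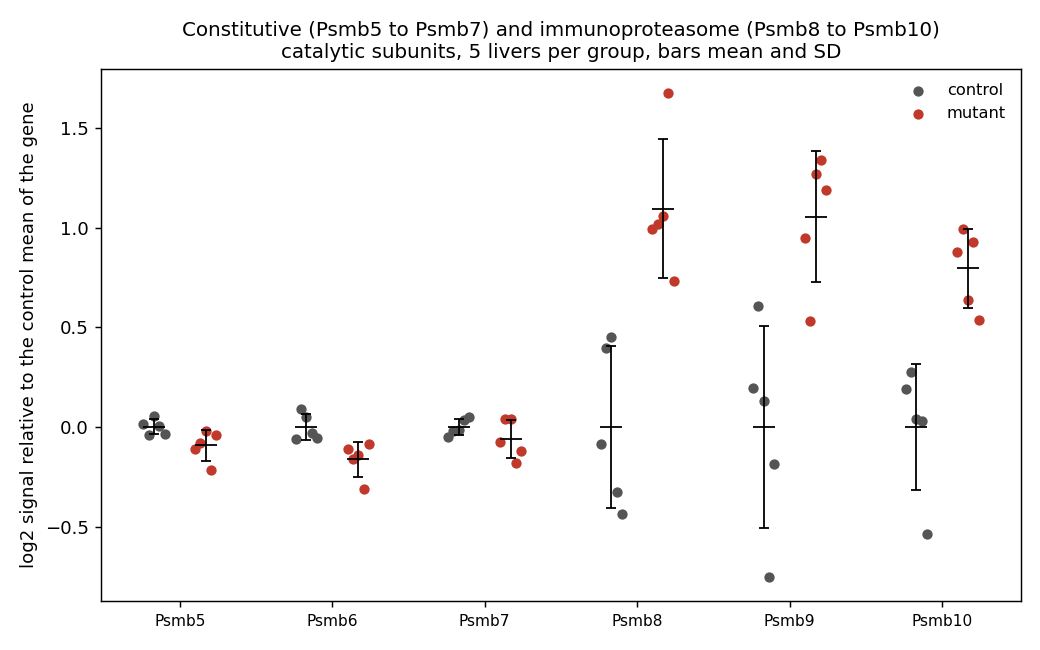
Log2 signal of the 6 catalytic subunits relative to the control mean of each gene (y axis), with a point for each of 5 control and 5 mutant livers and bars for mean and SD. The points of Psmb5, Psmb6 and Psmb7 lie close together in both groups, while those of Psmb8, Psmb9 and Psmb10 spread widely among controls and lie higher in mutants.

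The inducible subunits also varied more among the control livers than the constitutive ones. Their control SDs were 0.41, 0.51 and 0.32, whereas those of Psmb5, Psmb6 and Psmb7 were 0.04, 0.07 and 0.04. The median control SD of all genes was 0.16. The inducible genes were also dimmer, with control means from 8.73 to 9.16 against 11.50 to 12.14. Spread was not compared at matched signal. The mean of Psmb8, Psmb9 and Psmb10 was low in control replicates 4 and 5, at -0.35 and -0.39 relative to the control mean, and high in control replicate 2, at 0.43.

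Psmb9 and Psmb8 are neighbours on mouse chromosome 17, where they alternate with Tap1 and Tap2, which encode the peptide transporter of class I presentation. The start regions of the pair are shown because these genes rose together and because that of Psmb9 is shared. From RefSeq on build GRCm38.p6, windows of 250 bases before and 50 bases after the annotated start were found for 40 of the 48 members. The Psmb9 window, chr17:34187281-34187580 on the minus strand, shares 275 of its 300 bases with the Tap1 window on the plus strand, chr17:34187306-34187605. The Psmb8 window is chr17:34197945-34198244 on the plus strand. Capitals mark matches to the letters searched on both strands, which were the ETS core CCGGAAG, the interferon-stimulated response element (GAAA, any 2 bases, GAAA), the gamma-activated site TTCNNNGAA, the antioxidant response element core TGACNNNGC and the CCAAT box. Matches did not overlap in the windows shown.
Psmb9: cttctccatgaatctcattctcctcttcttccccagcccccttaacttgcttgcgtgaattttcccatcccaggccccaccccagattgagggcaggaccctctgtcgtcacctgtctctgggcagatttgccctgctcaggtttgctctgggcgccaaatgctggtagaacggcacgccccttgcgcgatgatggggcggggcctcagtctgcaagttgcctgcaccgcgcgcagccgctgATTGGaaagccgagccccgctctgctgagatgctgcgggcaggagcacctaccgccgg
Psmb8: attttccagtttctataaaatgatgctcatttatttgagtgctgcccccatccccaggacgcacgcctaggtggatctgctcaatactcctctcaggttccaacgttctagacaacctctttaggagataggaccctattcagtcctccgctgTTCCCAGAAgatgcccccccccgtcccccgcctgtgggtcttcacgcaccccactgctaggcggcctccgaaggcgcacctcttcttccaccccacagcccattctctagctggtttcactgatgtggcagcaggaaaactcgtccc
In the Psmb9 window the capitals are a CCAAT box on the opposite strand, which 41.1% of 27025 genes have in windows of this length. In the Psmb8 window they are a gamma-activated site from 97 to 89 bases before the start, found in 9.55% of all genes.

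Tap1 itself differed by 0.52 (SE 0.27, adjusted p = 0.201) and Tap2 by 0.48 (SE 0.27, adjusted p = 0.249), and neither passed. Tap1 ran from 6.49 to 7.38 in controls and from 6.71 to 7.998 in mutants, so the groups overlapped. Of 12 class I presentation genes measured, 1 rose and 1 fell, with a median difference of 0.14. These counts lie near the share of all genes called, 8.62% higher and 11.5% lower. The one that rose was Nlrc5, a transactivator of class I genes, at 0.74 (SE 0.19, adjusted p = 0.0274), a call that did not hold when any of controls 1, 4 and 5 or mutants 1 and 4 was left out (adjusted p up to 0.0617). The one that fell was Erap1, the peptidase that trims class I peptides, at -0.77 (SE 0.19, adjusted p = 0.0247), which did not hold when any of controls 3, 4 and 5 or mutants 1 and 3 was left out (adjusted p up to 0.0553), nor with its probe sets averaged (-0.48, adjusted p = 0.0694). Tapbp, the tapasin chaperone, differed by 0.40 (adjusted p = 0.0639) and passed without control replicate 5 (adjusted p = 0.0423) or with array medians (adjusted p = 0.0189) or 75th percentiles (adjusted p = 0.0250) subtracted, and the class I heavy chain H2-D1 differed by 0.49 (adjusted p = 0.114), and by 1.19 (adjusted p = 0.0349) on its most variable probe set.

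Interferon response genes were measured beside the immunoproteasome because interferon is its known inducer. Of 14 measured, 5 rose and 0 fell, all 14 differences were above 0, and the median was 0.59. Over all genes 8.62% were called higher and 45.2% had a difference above 0. The smallest differences of the list, named after their values were seen, were those of Iigp1, at 0.02 (adjusted p = 0.949), and Cxcl9, at 0.07 (adjusted p = 0.939). The 4 with the smallest p were the chemokine Cxcl10 at 1.91 (SE 0.54, adjusted p = 0.0361), the antiviral gene Ifit1 at 1.69 (SE 0.47, adjusted p = 0.0345), the GTPase Igtp at 0.72 (SE 0.19, adjusted p = 0.0310) and the transcription factor Irf1 at 0.65 (SE 0.15, adjusted p = 0.0176). Irf1 was called in all 10 fits that left out 1 array. Igtp lost its call when any of controls 3 and 4 or mutants 1 and 4 was left out (adjusted p up to 0.0728). Cxcl10 lost it when any of controls 1, 3, 4 and 5 or mutant 4 was left out (adjusted p up to 0.0768), and Ifit1 when any of controls 2 to 5 or mutants 1 and 4 was (adjusted p up to 0.0755). Relative to controls, the interferon list mean was 0.14, 0.19, 0.10, -0.18 and -0.25 in controls 1 to 5, where the immunoproteasome mean was 0.10, 0.43, 0.21, -0.35 and -0.39. Both were thus above 0 in controls 1 to 3 and below 0 in controls 4 and 5. In mutants 1 to 5 the interferon list mean was 1.36, 0.26, 0.32, 0.84 and 0.82 and the immunoproteasome mean 0.94, 0.85, 0.99, 1.32 and 0.82. All mutants lay above all controls on both, and the interferon list was lowest in mutants 2 and 3. The part of interferon in the immunoproteasome signal was not tested.

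Macrophage markers moved in the same direction. Of 11 measured Kupffer cell and macrophage markers 8 rose and 0 fell, with a median difference of 0.62, beside 8.62% of all genes called higher. Relative to controls their mean lay between -0.62 and 0.33 on control arrays and between 0.37 and 0.89 on mutant arrays. Control replicates 2 and 3, with the highest macrophage signal among controls, at 0.32 and 0.33, also had the highest immunoproteasome means among controls, at 0.43 and 0.21. Control replicate 4 had the lowest macrophage mean, -0.62, with an immunoproteasome mean of -0.35. Control replicate 5 had a macrophage mean of 0.06 with the lowest immunoproteasome mean, -0.39. In mutants 1 to 5 the macrophage mean was 0.65, 0.66, 0.37, 0.89 and 0.48. There the immunoproteasome mean was 0.94, 0.85, 0.99, 1.32 and 0.82. Mutant replicate 4 was highest on both, while mutant replicate 3, lowest on macrophage markers, had the next highest immunoproteasome mean. Of 7 measured lymphocyte markers 1 rose, the pan-leukocyte gene Ptprc (0.75, adjusted p = 0.0411), and their mean lay between -0.25 and 0.31 on control arrays and between -0.16 and 0.38 on mutant arrays. Of the 7 differences 4 were above 0, and the median was 0.01. Cd79b and Ms4a1 lay lower in mutants, at -0.35 (adjusted p = 0.124) and -0.21 (adjusted p = 0.279), and did not pass. The lymphocyte genes Cd2 and Nkg7 had control means of 2.74 and 1.96, below the 25th percentile of all values (3.60), and Cd8a, at 3.66, lay just above it. Of 7 dendritic cell and neutrophil markers 1 rose, the class II invariant chain Cd74, at 0.86 (adjusted p = 0.0384), and their mean lay between -0.55 and 0.60 on control arrays and between 0.14 and 1.14 on mutant arrays. Ptprc, Cd79b, Ms4a1 and Cd74 are named here after their values were seen. The part of these cells in the immunoproteasome signal was not tested, and in whole liver more cells of a type and more RNA per cell cannot be told apart.

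**Figure D3:**
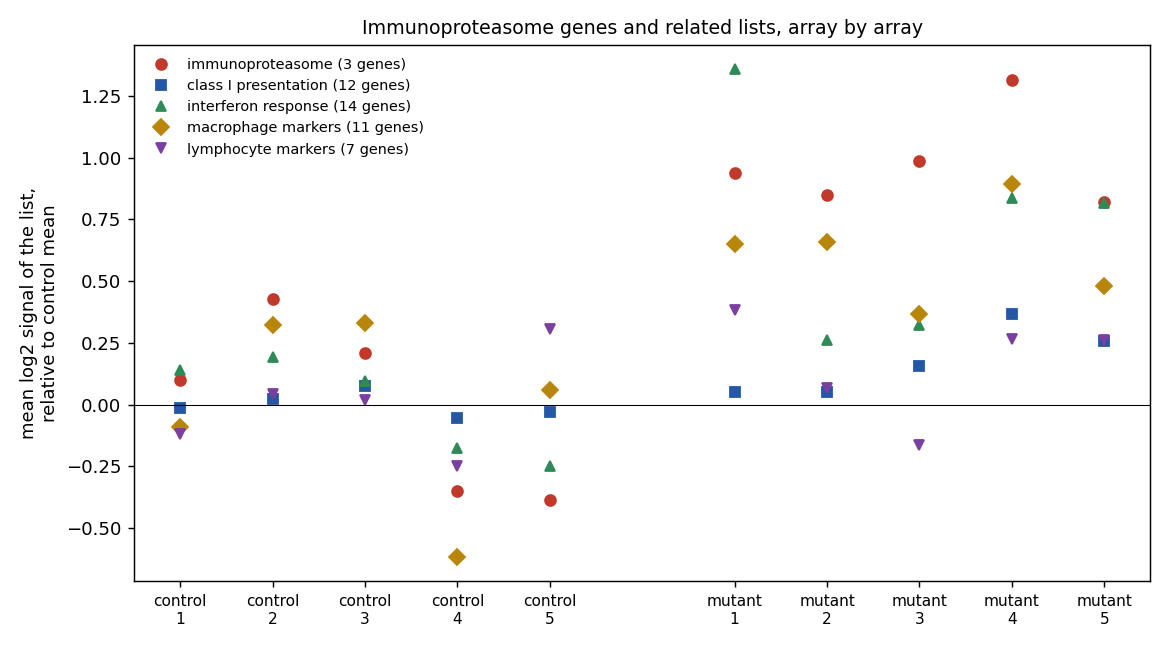
Mean log2 signal of the immunoproteasome genes and of 4 other lists on each array (x axis), relative to the control mean of each gene (y axis). The immunoproteasome mean lies between -0.39 and 0.43 in controls and between 0.82 and 1.32 in mutants, while the interferon list varies more among mutants, from 0.26 to 1.36.

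Assembly chaperones made up most of the members that fell. Of 7 measured members 4 fell, 0 rose and all 7 differences were below 0, with a median of -0.30, and 11.5% of all genes were called lower.  The dedicated core chaperones Psmg1 to Psmg4 act in pairs, Psmg1 with Psmg2 and Psmg3 with Psmg4, and place the alpha subunits in the ring.

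Psmg3 had the lowest difference of all 48 members. Its control values were 8.54, 8.52, 8.40, 8.78 and 8.51, and its mutant values were 7.44, 6.59, 7.42, 7.27 and 8.27. Mutant replicate 5 lay just under the controls, and the other mutants lay well below them. The means of 8.55 ± 0.14 (SD, n = 5) and 7.40 ± 0.60 (SD, n = 5) differed by -1.15 (SE 0.25, adjusted p = 0.0168), and the mutant level was thus 2.23-fold lower.

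Psmg4, its partner, stood at 6.86, 6.80, 7.06, 6.65 and 7.03 in controls and at 5.92, 5.93, 6.11, 5.83 and 6.72 in mutants. Again mutant replicate 5 was the highest mutant, here within the control range. The difference was -0.77 (SE 0.17, adjusted p = 0.0150), and a second, dim probe set with a control mean of 2.88 differed by -0.02, so that their mean differed by -0.40 (adjusted p = 0.0210). Without mutant replicate 5 the differences of Psmg3 and Psmg4 were -1.37 and -0.93.

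Psmg1 fell by less but with little spread. Controls stood at 10.04, 9.91, 10.13, 10.08 and 10.12 and mutants at 9.56, 9.46, 9.62, 9.54 and 9.84, without overlap. The difference was -0.45 (SE 0.08, adjusted p = 0.00840, 95% interval -0.62 to -0.27). Psmg2 ran from 10.64 to 10.91 in controls and from 10.16 to 10.89 in mutants, and its difference of -0.21 (SE 0.13, adjusted p = 0.303, 95% interval -0.51 to 0.09) did not pass. On Psmg2, too, mutant replicate 5 was the highest mutant.

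Among the chaperones of the regulatory base, Psmd5 fell. It stood at 9.32, 9.39, 9.45, 9.49 and 9.36 in controls and at 9.12, 9.13, 9.17, 9.04 and 9.07 in mutants. The mutants lay in a narrow band below all controls, and mutant replicate 5 was among the lowest of them. The difference was -0.30 (SE 0.05, adjusted p = 0.00734), the smallest adjusted p of any member. Psmd9, at -0.23 (SE 0.17, adjusted p = 0.376), and Psmd10, also known as gankyrin, at -0.03 (SE 0.06, adjusted p = 0.801), did not pass. A second probe set of Psmd9 differed by 0.25, so with the mean of all probe sets or the most variable one 6 of the 7 chaperones lay below 0. Psmg1, Psmg3, Psmg4 and Psmd5 were called in all 10 fits without 1 array, with adjusted p up to 0.0238, 0.0423, 0.0388 and 0.0209.

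**Figure D4:**
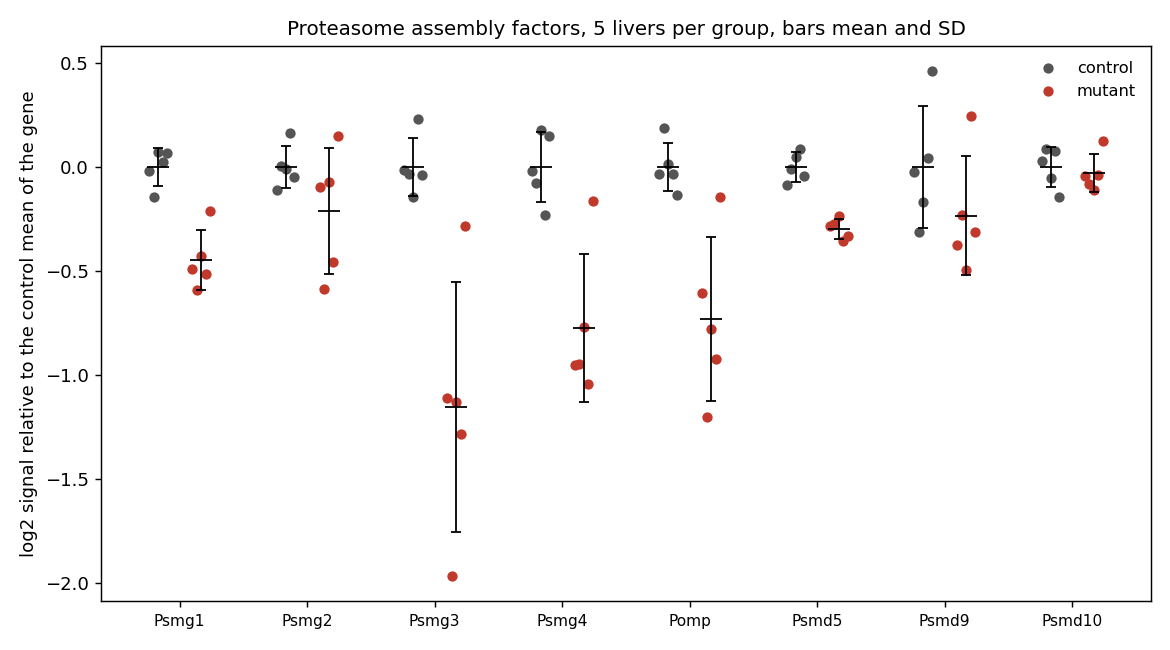
Log2 signal of 8 proteasome assembly factors relative to the control mean of each gene (y axis), with a point for each of 5 control and 5 mutant livers and bars for mean and SD. Psmg3, Psmg4 and Pomp lie lowest in mutants with 1 mutant close to the controls, mutant replicate 5, and Psmd5 is lower by a near-constant amount.

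The start regions of Psmg1 and Psmg3 are shown because both genes fell and because both hold the ETS core CCGGAAG. The Psmg3 window is chr5:139826845-139827144 and the Psmg1 window is chr16:95990911-95991210, both on the minus strand of GRCm38.p6, with the 5 kinds of match in capitals as above.
Psmg3: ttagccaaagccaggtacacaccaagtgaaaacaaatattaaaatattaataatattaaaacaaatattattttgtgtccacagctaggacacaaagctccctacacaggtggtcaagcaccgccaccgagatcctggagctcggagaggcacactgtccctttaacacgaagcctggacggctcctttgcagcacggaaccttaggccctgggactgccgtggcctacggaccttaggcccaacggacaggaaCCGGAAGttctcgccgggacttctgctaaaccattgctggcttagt
Psmg1: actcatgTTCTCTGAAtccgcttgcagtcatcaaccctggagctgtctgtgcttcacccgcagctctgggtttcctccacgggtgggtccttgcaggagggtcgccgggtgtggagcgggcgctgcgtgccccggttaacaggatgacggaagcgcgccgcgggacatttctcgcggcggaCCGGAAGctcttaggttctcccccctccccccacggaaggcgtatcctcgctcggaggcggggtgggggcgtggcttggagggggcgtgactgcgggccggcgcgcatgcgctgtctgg
In Psmg3 the match lies 4 to 10 bases past the annotated start, and in Psmg1 it lies 69 to 63 bases before it. Psmg1 also holds a gamma-activated site from 243 to 235 bases before the start. The ETS core was chosen after these sequences had been read. It was present in 16 of the 40 members with a window (40.0%), against 9.93% of all 27025 genes with one, in 10 of 25 constitutive core and regulatory subunits and in 0 of the 3 immunoproteasome genes. The letters were therefore shared by genes that fell and by many that did not. The window of Psmg4, which fell, held an interferon-stimulated response element 15 to 24 bases past the start, letters that 3.99% of all genes have, while none of the 5 motifs was found for Psmd5.

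The structural subunits of the constitutive core and the regulatory particle differed little. Leaving out Psma8, a testis subunit whose control mean of 3.24 lies below the 25th percentile of all values, 31 such subunits were measured. Of these 2 rose, 1 fell and 28 did not pass, beside 8.62% of all genes called higher and 11.5% lower. Their median difference was -0.01. For 30 of the 31 the difference was smaller than 0.3 in size, as it was for 64.1% of all genes. Their median control SD was 0.08, below the 0.16 of all genes. Their control means, from 9.69 to 13.39, lie above the median gene mean of 7.63, and spread was not compared at matched signal.

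In the alpha ring, which gates entry to the core, 1 of 8 members rose, beside 8.62% of all genes called higher. Psma1 stood at 12.38, 12.36, 12.49, 12.35 and 12.37 in controls and at 12.64, 12.88, 12.76, 12.57 and 12.57 in mutants, without overlap. It differed by 0.29 (SE 0.07, adjusted p = 0.0198) and was called in all 10 fits without 1 array. The call was lost when each array's median was subtracted (0.31, adjusted p = 0.0736) or when its 4 probe sets, 3 of them dim, were averaged (0.11, adjusted p = 0.192) or the most variable of them was used (0.24, adjusted p = 0.365). Psma6, named after its values were seen, lay higher in every mutant than in any control by a small margin, at 12.62 to 12.71 against 12.50 to 12.61 (0.11, adjusted p = 0.0669). Psma4 had the lowest difference of the ring, at -0.16 (SE 0.08, adjusted p = 0.191).

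Of the 4 beta subunits without catalytic sites, 0 were called by limma and 0 had an unadjusted p under 0.05. They ranged from -0.10 for Psmb2 (adjusted p = 0.178) to 0.10 for Psmb4 (adjusted p = 0.376). These subunits serve both the constitutive core and the immunoproteasome.

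Of the 6 ATPases that form the ring of the base, Psmc2 rose, beside 8.62% of all genes called higher. It stood at 11.70, 11.86, 11.78, 11.85 and 11.70 in controls and at 11.91, 12.24, 12.17, 11.99 and 11.94 in mutants, without overlap. Its difference was 0.27 (SE 0.08, adjusted p = 0.0356), but among the fits that left out 1 array the call stood in 3, those without control 2, mutant 1 or mutant 5, and elsewhere the adjusted p reached 0.0754. It was also lost with array medians (adjusted p = 0.105) or 75th percentiles (adjusted p = 0.0567) subtracted, with probe sets averaged (0.17, adjusted p = 0.0911) and with the most variable probe set (0.21, adjusted p = 0.188). The lowest difference among the ATPases was that of Psmc5, at -0.13 (SE 0.05, adjusted p = 0.126). The scaffold subunit Psmd2 differed by 0.07 (adjusted p = 0.565) and the ubiquitin receptor Psmd4 by -0.14 (adjusted p = 0.167).

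In the lid, 1 of 8 members fell and 7 of 8 differences were below 0. Among all genes 11.5% were called lower and 45.2% had a difference above 0, so the count called lies near that background. Psmd13, a structural lid subunit, stood at 9.86, 10.03, 10.21, 10.07 and 10.19 in controls and at 9.77, 9.61, 9.74, 9.48 and 9.82 in mutants. The groups did not overlap, although control replicate 1 and mutant replicate 5 lay close to each other. The difference was -0.39 (SE 0.09, adjusted p = 0.0177), with -0.32 on a second probe set and 0.04 on a dim further one. The call was lost with the 3 probe sets averaged (-0.22, adjusted p = 0.0660) and on the dim one, which is the most variable (adjusted p = 0.908). The highest difference of the lid was that of Psmd3, at 0.02 (SE 0.05, adjusted p = 0.803). Psmd14, the deubiquitinase of the lid, named after its values were seen, differed by -0.23 (SE 0.10, adjusted p = 0.131). Psmd8 and Psmd7, also named after their values were seen, differed by -0.22 (adjusted p = 0.0614) and -0.16 (adjusted p = 0.178). Psmd8 was called lower without mutant replicate 1, and Psmd7 without mutant replicate 5.

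Activators that cap the core in place of the regulatory particle gave 0 calls among 3 measured by limma, with an unadjusted p under 0.05 for 2. Psme1, an interferon-inducible activator, stood at 11.10, 11.15, 10.87, 11.02 and 10.92 in controls and at 11.30, 11.31, 11.20, 11.60 and 11.10 in mutants. Only mutant replicate 5 lay within the control range. The difference of 0.29 (SE 0.10, adjusted p = 0.0630, 95% interval 0.07 to 0.51) passed without mutant replicate 5, at 0.34 (adjusted p = 0.0277), and with array weights (adjusted p = 0.0352). The window of Psme1 held the interferon-stimulated response element letters. They were in 5 of 40 members with a window (12.5%) and 3.99% of all genes, but in 0 of 3 immunoproteasome genes. The other members that held them were Psmd9, Psmd4, Psmb3 and Psmg4, of which Psmg4 was called lower and the rest were not called.

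The nuclear activator Psme3 ran from 8.52 to 9.03 in controls and from 8.22 to 8.78 in mutants, and differed by -0.32 (SE 0.14, adjusted p = 0.124). Its second probe set differed by -0.72 (adjusted p = 0.0489 over all probe sets) and the mean of both by -0.52 (adjusted p = 0.0440), so the call depended on the probe set read. The nuclear activator Psme4 differed by -0.03 (SE 0.07, adjusted p = 0.841, 95% interval -0.19 to 0.13). Psmf1, the inhibitor PI31, differed by -0.37 (SE 0.15, adjusted p = 0.116), with mutant replicate 2 at 8.11 and the other mutants from 8.71 to 8.90, against 8.87 to 9.26 in controls. Its 3 other probe sets differed in the opposite direction, by up to 0.42, and its direction is uncertain. Psmc3ip, a recombination factor, and Psme3ip1, an interaction partner of Psme3, differed by 0.03 (adjusted p = 0.806) and -0.04 (adjusted p = 0.733).

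Proteasome partners with other symbols were taken from a list of 19, of which 15 were measured, with 1 that rose, 2 that fell and a median difference of 0.05. Over all genes 8.62% were called higher and 11.5% lower, so these counts lie near that background. Pomp, the chaperone that inserts beta subunits and is needed for immunoproteasome assembly, stood at 11.40, 11.62, 11.45, 11.41 and 11.30 in controls and at 10.83, 10.23, 10.66, 10.51 and 11.29 in mutants. As for Psmg3, mutant replicate 5 lay at the edge of the controls. The difference was -0.73 (SE 0.17, adjusted p = 0.0200), lost only without mutant replicate 4 among the fits without 1 array (adjusted p = 0.0502).

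Uchl5, a deubiquitinase bound to the regulatory base, ran from 9.82 to 10.19 in controls and from 9.19 to 9.72 in mutants, without overlap. It differed by -0.63 (SE 0.11, adjusted p = 0.00878), and by -0.32 (adjusted p = 0.0200) with its probe sets averaged. Rad23b, a shuttle that delivers ubiquitinated proteins, was higher by 0.38 (SE 0.09, adjusted p = 0.0175), a call lost with its probe sets averaged (0.21, adjusted p = 0.174) or with its most variable probe set (0.15, adjusted p = 0.675). Ecpas, a proteasome scaffold, differed by 0.45 (adjusted p = 0.0526), passed when control 5 or mutant 2 was left out (lowest adjusted p 0.0380), when arrays were rescaled by any of 3 methods, when dim genes were left out and with array weights (lowest adjusted p 0.0251), and had the opposite sign on its most variable probe set, at -0.20.

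Of 7 ubiquitin and segregase genes measured 1 rose and 0 fell, with a median of 0.09, beside 8.62% of all genes called higher and 11.5% lower. The one that rose was Uba6, a ubiquitin-activating enzyme, at 0.72 (SE 0.22, adjusted p = 0.0440). Uba6 stood at 7.10 in mutant replicate 5 and from 7.96 to 8.42 in the other mutants, against 7.06 to 7.42 in controls. Its call was held only without mutant replicate 5 (adjusted p = 0.000603) and reached an adjusted p of 0.0944 without another array. It was also lost with quantile normalization (adjusted p = 0.0631), with array medians subtracted (adjusted p = 0.0556) and with all probe sets tested together (adjusted p = 0.0578), and with its probe sets averaged the difference was 0.47 (adjusted p = 0.0391). The segregase cofactors Faf2, Nsfl1c and Ufd1 differed by 0.33 (adjusted p = 0.0845), 0.15 (adjusted p = 0.178) and -0.14 (adjusted p = 0.280). Without control replicate 5 Faf2 passed (adjusted p = 0.0495), and without mutant replicate 5 Ufd1 passed at -0.21 (adjusted p = 0.0380).

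Among 6 measured regulators of proteasome genes 2 rose and 1 fell, with a median of -0.07, beside 8.62% of all genes called higher and 11.5% lower. Nfe2l1, the transcription factor that induces proteasome subunits when proteolysis is impaired, stood at 8.44, 8.08, 7.80, 8.26 and 8.08 in controls and at 9.39, 8.81, 9.12, 9.19 and 8.42 in mutants. Mutant replicate 5 again lay within the control range. The difference was 0.85 (SE 0.19, adjusted p = 0.0157) and was called in all 10 fits that left out 1 array. Nfe2l2, the transcription factor of the antioxidant response, differed by 0.55 (SE 0.11, adjusted p = 0.0142) on its brightest probe set and by -1.58 (adjusted p = 0.178) on its most variable one. Foxo4, a forkhead transcription factor, fell by 0.93 (SE 0.25, adjusted p = 0.0310), a call held only without mutant replicate 5 and lost without any other array (adjusted p up to 0.0708). Ngly1, the glycanase that activates the Nfe2l1 protein, differed by -0.14 (adjusted p = 0.261).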

How the data were processed

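Amplified, biotinylated RNA from 5 control and 5 mutant livers was hybridised to 1 expression array each, per the labels. The authors deposited 1 table of log2 values for 25995 probe sets. The log scale was read from the values (0.27 to 16.7, near-equal quartiles). Neither labels nor file headers name the background correction or normalization. Differences depend on those steps, and 5 arrays a group limit the precision.

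After 37 control probe sets were left out, 21613 probe sets had 1 symbol, 638 several and 3707 none in GEO's platform annotation. Each gene was read from its brightest probe set. Groups were compared in R 4.3.3 by a linear model without covariates and moderated two-sided tests (limma 3.58.1, lmFit and eBayes), with Benjamini-Hochberg adjustment over 12366 genes. The fit was tested on simulated data. The p-values cover only the spread among these samples.

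Members and lists were chosen with earlier results of these data known. Named were Dicer1, every called member, all catalytic and activator members, the extremes of each other role, and 4 genes with the smallest p in each partner list. Tap1 and Tap2 were named as neighbours of Psmb8 and Psmb9. Marker lists were given as counts and means, and a few markers and other genes were named after their values were seen. Alternatives covered scaling, dim genes, probe set choice, eBayes options, array weights, the replicate number and each array left out.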

Additional observations from a re-analysis of the deposited data

Results flagged for a closer look

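Among the named genes, Dicer1 and the average of the catalytic pairs, 100 groups of 5 arrays were examined for a sample far from the other 4, and 4 stood out, where chance marks about 1 in 20. The average of the inducible against the constitutive catalytic subunits was 1.55 in mutant replicate 4, with the other mutants between 0.90 and 1.04. Psma1 stood at 12.49 in control replicate 3, with the other controls between 12.35 and 12.38. Psmf1 stood at 8.11 in mutant replicate 2, with the other mutants between 8.71 and 8.90. Foxo4 stood at 6.90 in mutant replicate 5, with the other mutants between 5.42 and 5.83.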

How the results depend on the processing

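The counts of members called higher and lower, 5 and 5, became 3 higher with array medians subtracted, 3 with the mean of all probe sets and 3 with the most variable probe set, and in each of these Psmb8, Psmb9 and Psmb10 were the ones called. With the mean or the most variable probe set the 5 called lower held Psme3 in place of Psmd13. Leaving out 1 array gave 3 to 6 members higher and 5 to 7 lower, 627 to 1371 of all genes higher, 764 to 2160 lower and 1391 to 3531 in all, with the lowest counts of all genes without mutant replicate 4 and the highest without mutant replicate 5. The catalytic average stayed between 0.97 and 1.19 and Dicer1 between -1.07 and -1.002. With another probe set or their mean, the sign turned for Psmd13 (0.0442), Psmf1 (0.42 and 0.17), Nfe2l2 (-1.58 and -0.51), Ecpas (-0.20) and Ufd1 (0.13), since the probe sets of these genes differ. Without 1 array Psme4 ranged from -0.0633 to 0.00751 and Psmc3ip from -0.00473 to 0.0523. The replicate numbers pair nothing in the labels, and same-numbered arrays deviated with correlations from -0.18 to 0.09. With the replicate number as a block 4 members were higher and 6 lower, beside 5.81% and 9.03% of all genes. The catalytic average is taken from the values and not from the fit, so a block cannot change it. In the fit with the block Psmb9 lost its call (adjusted p = 0.0697), as did Pomp, Irf1, Igtp, Cxcl10, Nlrc5, Foxo4 and Uba6. Psme3 (adjusted p = 0.0418) and Tapbp gained one.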

Other observations

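Markers of other liver cell types were measured for comparison. Over all genes 8.62% were called higher and 11.5% lower. Of 7 stellate cell markers 5 rose and 0 fell, with a median difference of 0.72, and the list mean relative to controls ran from -0.12 to 0.15 in controls and from 0.39 to 0.90 in mutants. Of 7 sinusoidal endothelial markers 1 fell, Lyve1, named after its values were seen, at -0.95 (SE 0.21, adjusted p = 0.0175), with a median of -0.16. Of 5 biliary markers 0 were called by limma and 1 had an unadjusted p under 0.05, with a median of 0.32.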
